A study of Mus musculus with 6 samples.

Results

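The transcripts of 10 mouse genes for demethylases of histone H3 lysine 9 (H3K9) were examined in MPC5 cells. The genes were chosen by name for the enzymes they encode, with earlier results of these data known. All 10 were found among the 21719 genes of the count table. MPC5 is a conditionally immortalised mouse podocyte line, and podocytes are the epithelial cells that form the outer layer of the glomerular filter. All libraries came from total RNA of MPC5 cells under high glucose. They formed 2 groups of 3 libraries, one labelled Setdb2KO (Setdb2 knockout) and one labelled Setdb2WT (wild type). The sources used here do not state how Setdb2 was edited, whether the knockout cells are 1 clone, or whether the 3 libraries of a label came from separate cultures. P-values therefore measure only the spread between these libraries, which may be technical.

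Methylation of H3K9 marks silenced chromatin. SET-domain methyltransferases write it, HP1 proteins bind it, and demethylases take it off. Kdm1a (LSD1) is a flavin-dependent amine oxidase that works in the CoREST complex. The other 9 enzymes carry a JmjC domain, a fold that uses iron, oxygen and 2-oxoglutarate to oxidise the methyl group. They fall into 3 branches, which are Kdm3a, Kdm3b and Jmjd1c, then Kdm4a to Kdm4d, then Phf8 and Kdm7a. The series asks what Setdb2, a protein assigned to H3K9 methylation, does to transcription in podocytes. The enzymes examined here are assigned to methylation of the same lysine, but not all to the same methylation state. Their activity on it was not measured.

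The libraries held 36461449 to 37129174 counted reads each. Setdb2 itself had 17, 15 and 25 reads in the libraries labelled Setdb2KO, against 12, 10 and 9 reads in those labelled Setdb2WT. Its log2 fold change of 0.73 (95% interval -0.09 to 1.55) missed the threshold of 0.05 in edgeR's quasi-likelihood test (adjusted p = 0.0881). It passed as higher under total-count scaling, at 0.88, and was 0.48 without Setdb2KO replicate 3 (adjusted p = 0.324). As Setdb2 RNA was no lower under the knockout label, each direction here is that of one label against the other, and nothing is drawn about loss of the gene. Of 13509 genes tested, 83.8% passed the test, so a call by itself sets a gene apart from few others. Podocyte markers went against the label in part. Wt1, the transcription factor that marks podocytes, had 0.0087 ± 0.015 CPM (reads scaled by library size and TMM factor) under Setdb2KO and 0.028 ± 0.028 CPM under Setdb2WT (SD, n = 3 each). The 7 podocyte markers in the table summed to 1143 to 1245 CPM under Setdb2KO and 1229 to 1234 CPM under Setdb2WT, with 3 higher, 3 lower and 1 not tested. Most of either sum came from Actn4 and Cd2ap, which moved in opposite directions. Actn4 had 524 ± 16 CPM under Setdb2KO and 716 ± 0.061 CPM under Setdb2WT, and Cd2ap 633 ± 67 and 415 ± 4.1 CPM. Podxl, among the 3 lower, had 4.96 ± 0.38 CPM under Setdb2KO and 50.5 ± 1.6 CPM under Setdb2WT. Over 4 tubular markers the sum was 424 to 447 CPM under Setdb2KO and 1084 to 1099 CPM under Setdb2WT, with 3 lower and 1 not tested. Over 4 fibroblast markers it was 604 to 612 CPM under Setdb2KO and 2266 to 2346 CPM under Setdb2WT, nearly all of it from Vim, with 2 lower and 2 not tested. The remaining lists were lower in level. The 6 mesangial markers summed to 31.2 to 33.6 CPM under Setdb2KO and 121 to 127 CPM under Setdb2WT, with 5 lower and 1 not tested. The 6 endothelial markers summed to 3.21 to 4.78 CPM under Setdb2KO and 3.77 to 4.41 CPM under Setdb2WT, and 3 immune markers to 9.38 to 11.8 CPM under Setdb2KO and 13.7 to 15.2 CPM under Setdb2WT. Of the endothelial markers 1 was higher, 1 lower and 4 not tested, and of the immune markers 1 was higher, 1 lower and 1 not tested. The endothelial marker that rose was Esam, with 1.74 ± 0.26 CPM under Setdb2KO and 0.266 ± 0.086 CPM under Setdb2WT. The one that fell was Kdr, with 1.97 ± 0.60 CPM under Setdb2KO and 3.69 ± 0.34 CPM under Setdb2WT. Among markers at higher levels, the tubular water channel Aqp1 had 51.7 ± 1.8 CPM under Setdb2KO and 468 ± 3.1 CPM under Setdb2WT, and Acta2, smooth muscle actin, had 15.5 ± 1.2 CPM under Setdb2KO and 42.1 ± 2.2 CPM under Setdb2WT. The macrophage receptor gene Csf1r had 5.24 ± 0.55 CPM under Setdb2KO and 9.74 ± 0.35 CPM under Setdb2WT (SD, n = 3 each). Cd68, the immune marker that rose, had 5.63 ± 0.82 CPM under Setdb2KO and 4.50 ± 0.59 CPM under Setdb2WT. The defining markers Cdh5, Emcn, Ptprc, Itga8, Dcn and Epcam each averaged at most 0.238 CPM under either label, and Emcn and Ptprc were at 0 under Setdb2KO. The part of these shifts in the results on demethylases was not tested. In these bulk samples a shift in the kinds of cells and a shift in RNA per cell cannot be told apart.

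Of the 10 genes listed here, every JmjC-domain member that could be tested was higher in the libraries labelled Setdb2KO, and Kdm1a was not. Of the 10 genes, 9 passed the filter on low counts. Among these 9, edgeR's quasi-likelihood test called 8 higher and 0 lower, and 1 missed the threshold. In comparison, 41.5% of all genes tested were higher and 42.3% were lower. The 3 libraries of the 2 labels did not overlap in any of the 8 that rose, a pattern with the Setdb2KO libraries on top that 42.0% of all genes tested showed. The median log2 fold change of the 9 was 0.70, against 0.0045 over all genes tested, and members ran from -0.07 for Kdm1a to 1.26 for Kdm4c. At least 2-fold rises numbered 3, those of Kdm4c, Kdm3a and Jmjd1c, at a background of 16.4%.

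**Figure D1:**
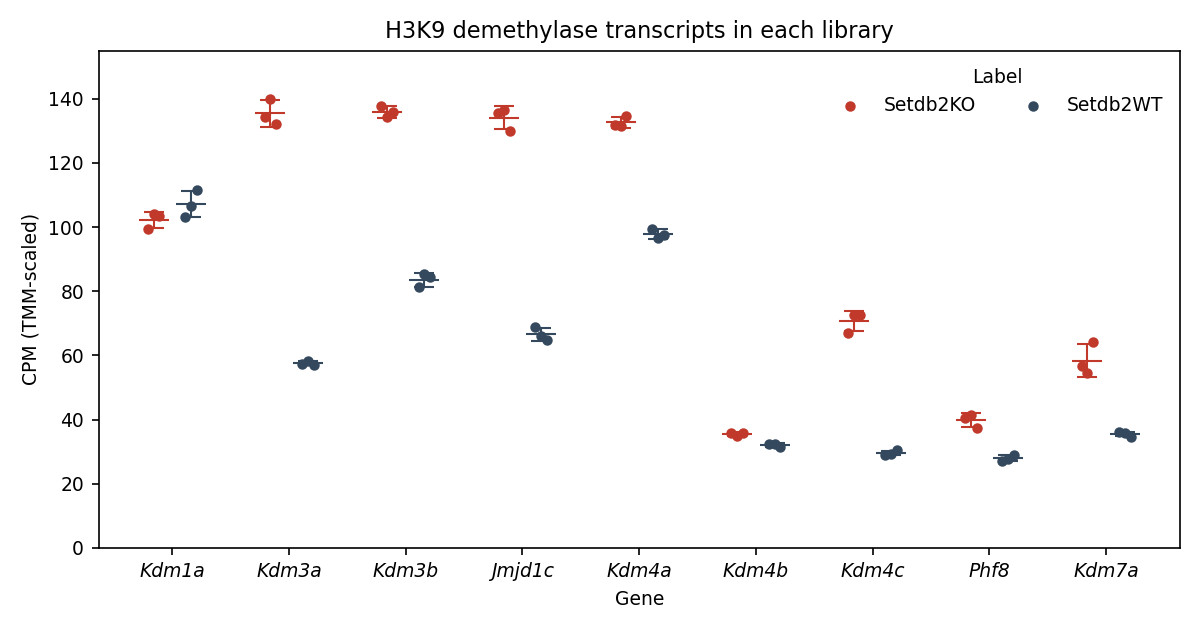
Levels of the 9 tested H3K9 demethylase genes on a CPM axis (TMM-scaled), with a point for each library, and a bar and whiskers for the mean and SD of 3 libraries per label. Setdb2KO libraries lie above all Setdb2WT libraries in 8 genes and overlap with them in Kdm1a.

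In the Kdm3 branch all 3 genes rose, Kdm3a by the most and Kdm3b by the least. Kdm3a, which removes mono- and dimethyl marks and in mice is needed for sperm formation and normal metabolism, had 134, 140 and 132 CPM under Setdb2KO, against 57.5, 58.3 and 57.0 CPM under Setdb2WT. The lowest Setdb2KO library was thus far above the highest Setdb2WT library, and the log2 fold change was 1.23 (SE 0.04; 2.35-fold; adjusted p = 6.1e-13, edgeR quasi-likelihood test). Jmjd1c, a large nuclear receptor cofactor whose own activity on H3K9 is disputed, had 136, 137 and 130 CPM under Setdb2KO, against 68.8, 66.0 and 64.8 CPM under Setdb2WT. Its log2 fold change was 1.01 (SE 0.04; 2.02-fold; adjusted p = 6.5e-12). Kdm3b, the close relative of Kdm3a with the same substrates, had 138, 134 and 136 CPM under Setdb2KO, against 81.2, 85.3 and 84.3 CPM under Setdb2WT. Its log2 fold change was 0.70 (SE 0.03; 1.63-fold; adjusted p = 1.3e-10).

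Ratios of reads between members of a branch do not depend on how libraries are scaled to each other, and they are compared between labels only, since they carry the lengths of the transcripts. Reads of Kdm3a per read of Kdm3b were 0.996 under Setdb2KO and 0.689 under Setdb2WT. The mean log2 ratio differed by 0.53 (SD 0.057 under Setdb2KO and 0.035 under Setdb2WT, n = 3 each), and libraries of the 2 labels did not overlap. Kdm3a per Jmjd1c was 1.01 under Setdb2KO and 0.865 under Setdb2WT, again without overlap. Over all branches 7 of 10 possible pairs were computed, and in 6 of them the labels did not overlap. How often pairs of genes in general show no overlap was not computed, so this count does not set these pairs apart. The exact permutation test (two-sided) with 3 libraries against 3 cannot go below p = 0.1, and the smallest p adjusted over the 7 pairs was 0.117, so no pair could pass. The other 3 pairs involve Kdm4d, which had 0 reads in 1 library.

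The Kdm4 branch, whose members Kdm4a, Kdm4b and Kdm4c take off di- and trimethyl marks of H3K9 and also act on H3 lysine 36, split by size of change. Kdm4c had 67.0, 72.7 and 72.5 CPM under Setdb2KO, against 29.0, 29.3 and 30.4 CPM under Setdb2WT. This was the largest rise among the demethylases, with a log2 fold change of 1.26 (SE 0.05; 2.39-fold; adjusted p = 9.1e-12, edgeR quasi-likelihood test), and its 95% interval of 1.15 to 1.36 overlapped that of Kdm3a, 1.15 to 1.31. Kdm4a had 132, 131 and 135 CPM under Setdb2KO, against 99.6, 96.6 and 97.6 CPM under Setdb2WT, a 1.35-fold rise (log2 fold change 0.44, SE 0.03, adjusted p = 1.5e-08). Kdm4b had 35.8, 34.8 and 35.8 CPM under Setdb2KO, against 32.3, 32.4 and 31.4 CPM under Setdb2WT. The groups of Kdm4b lay close together, with a log2 fold change of 0.15 (SE 0.05; 1.11-fold; adjusted p = 0.0117), and the call was lost without Setdb2WT replicate 3 (adjusted p = 0.0677, edgeR quasi-likelihood test).

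Kdm4d, which lacks the reader domains of its relatives and is known as a testis gene, was close to silent. It had 1, 2 and 3 reads under Setdb2KO, against 2, 1 and 0 reads under Setdb2WT, and was not tested. The summed reads were 6 under Setdb2KO and 3 under Setdb2WT, a scaled ratio of 1.81. The exact 95% interval, for counting error alone, was 0.387 to 11.2. A difference in Kdm4d was therefore not detectable at this depth.

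Within the Kdm4 branch, both ratios to Kdm4c were lower under Setdb2KO. Reads of Kdm4b per read of Kdm4c were 0.502 under Setdb2KO and 1.08 under Setdb2WT, a mean log2 difference of -1.11 (SD 0.082 under Setdb2KO and 0.061 under Setdb2WT, n = 3 each). Kdm4a per Kdm4c was 1.88 under Setdb2KO and 3.31 under Setdb2WT, a difference of -0.82. Kdm4a per Kdm4b differed less, with 3.74 under Setdb2KO and 3.06 under Setdb2WT. None of these 3 ratios overlapped between the labels (exact permutation p = 0.1 each, the smallest the design allows), and no share for other gene pairs was computed.

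**Figure D2:**
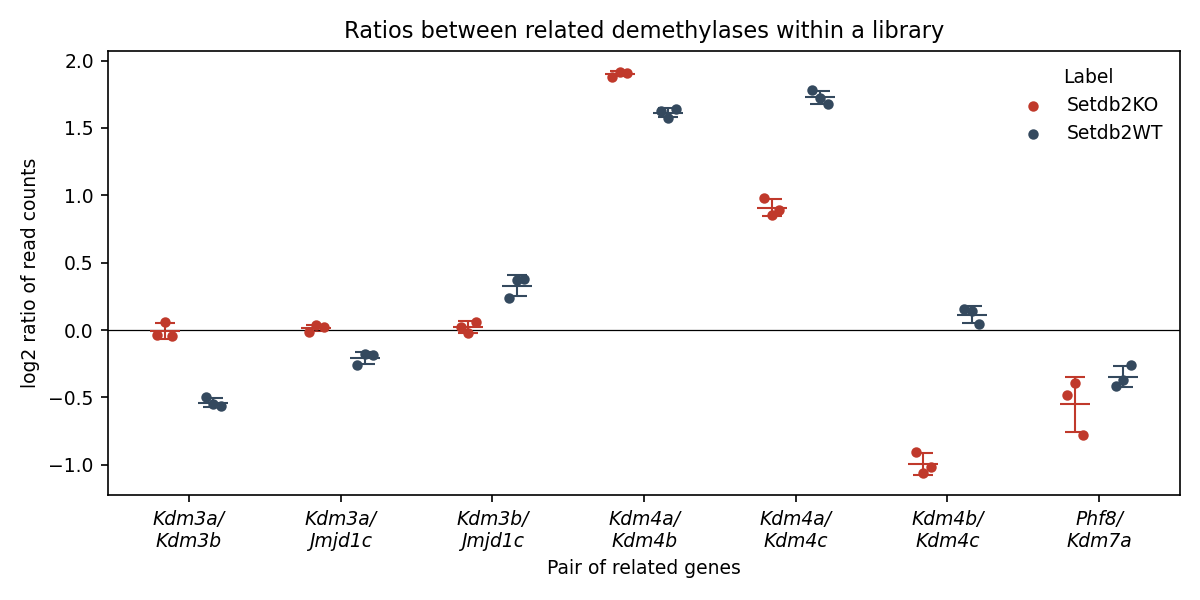
Log2 ratio of read counts between related demethylase genes within each library, with the mean and SD of 3 libraries per label. The pairs with Kdm4c as the second gene show the widest gaps between labels, -0.82 and -1.11, and only Phf8 over Kdm7a overlaps.

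Phf8 and Kdm7a, which share a PHD finger that binds H3 trimethylated at lysine 4, rose by intermediate amounts. Phf8, an X-linked gene whose loss in humans causes intellectual disability with cleft lip or palate, had 40.5, 41.5 and 37.4 CPM under Setdb2KO, against 27.1, 27.7 and 28.9 CPM under Setdb2WT. That is a log2 fold change of 0.51 (SE 0.06; 1.43-fold; adjusted p = 9.1e-07, edgeR quasi-likelihood test). Kdm7a, which also acts on H3 lysine 27, had 56.6, 54.4 and 64.2 CPM under Setdb2KO, against 36.1, 35.7 and 34.7 CPM under Setdb2WT. Its log2 fold change was 0.72 (SE 0.06; 1.64-fold; adjusted p = 4.8e-08), and replicate 3 of Setdb2KO lay above the other two. The ratio of Phf8 to Kdm7a was 0.683 under Setdb2KO and 0.786 under Setdb2WT, and libraries of the labels overlapped (exact permutation p = 0.2, two-sided, n = 3 each). The mean log2 difference was -0.20, and -0.088 without Setdb2KO replicate 3.

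Kdm1a had 99.4, 104 and 103 CPM under Setdb2KO, against 103, 107 and 111 CPM under Setdb2WT. The groups overlapped, and the log2 fold change was -0.07 (SE 0.04; 95% interval -0.15 to 0.02; adjusted p = 0.118, edgeR quasi-likelihood test). Its direction turned with scaling, to 0.09 under total-count scaling (adjusted p = 0.0447), and without Setdb2WT replicate 1 it passed as lower at -0.11 (adjusted p = 0.0295). Total-count scaling moved the median of all genes by 0.15 upward, and under it all 9 tested demethylases passed as higher, at a background of 48.5%.

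**Figure D3:**
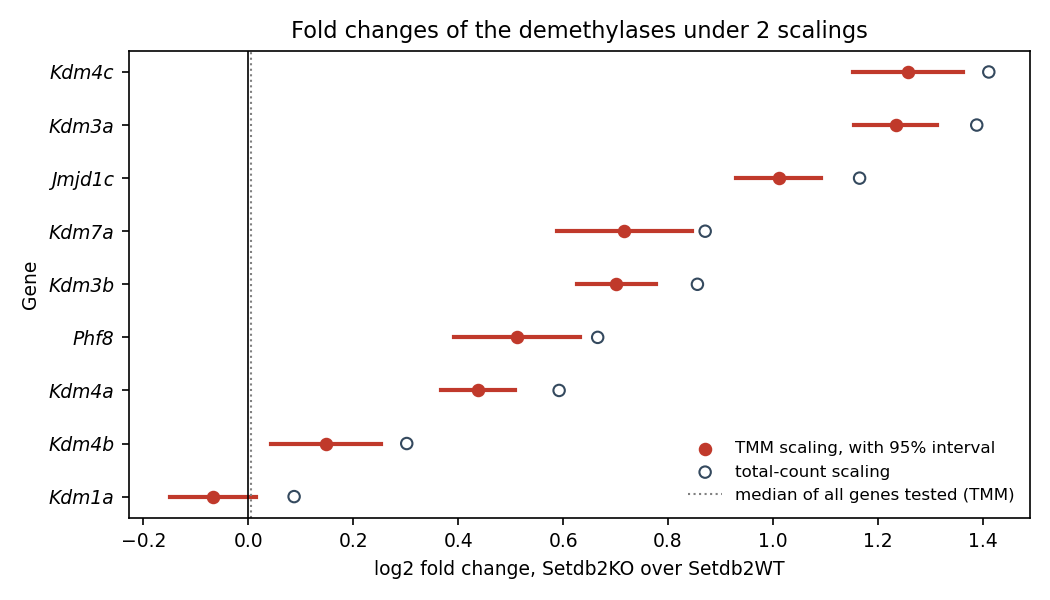
Log2 fold change of each tested demethylase gene, Setdb2KO over Setdb2WT, with its 95% interval under TMM scaling (filled points) and the value under total-count scaling (open points). Kdm4c, Kdm3a and Jmjd1c lie at 1.26, 1.23 and 1.01, and Kdm1a is the only gene whose points lie on both sides of 0.

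Levels between genes were compared as CPM per kilobase of exon, with exon lengths from the GENCODE annotation of GRCm38. Kdm4a held rank 1 under Setdb2KO at 22.9 ± 0.30 CPM per kilobase and rank 2 under Setdb2WT at 16.9 ± 0.26 (SD, n = 3 each). Kdm1a held rank 2 under Setdb2KO at 19.8 ± 0.49 CPM per kilobase and rank 1 under Setdb2WT at 20.7 ± 0.79. Kdm3a held rank 3 under both labels, at 16.5 ± 0.50 CPM per kilobase under Setdb2KO and 7.0 ± 0.079 under Setdb2WT. Kdm4c held rank 4 under Setdb2KO and rank 6 under Setdb2WT, whereas Kdm4b held rank 7 under Setdb2KO and rank 4 under Setdb2WT. Phf8 was the lowest tested gene under both labels, at 4.27 ± 0.23 CPM per kilobase under Setdb2KO and 3.0 ± 0.10 under Setdb2WT. Neighbours in this order did not overlap between their 3 libraries, except Jmjd1c and Kdm4b under Setdb2KO.

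The share of Kdm1a in the summed level per kilobase of all 10 genes was 18.7 ± 0.27% under Setdb2KO and 28.6 ± 0.84% under Setdb2WT (SD, n = 3 each). Kdm4b and Kdm4a also had lower shares, Kdm4b with 6.85 ± 0.17% under Setdb2KO and 9.03 ± 0.23% under Setdb2WT, and Kdm4a with 21.7 ± 0.29% under Setdb2KO and 23.4 ± 0.50% under Setdb2WT. The share of Kdm3a was 15.6 ± 0.45% under Setdb2KO and 9.66 ± 0.17% under Setdb2WT, and that of Kdm4c was 11.5 ± 0.41% under Setdb2KO and 7.01 ± 0.11% under Setdb2WT. The share of Jmjd1c was 7.11 ± 0.23% under Setdb2KO and 5.15 ± 0.20% under Setdb2WT, and that of Kdm3b was 9.12 ± 0.22% under Setdb2KO and 8.19 ± 0.17% under Setdb2WT. The 10 genes together summed to 839, 850 and 846 CPM under Setdb2KO, against 535, 538 and 541 CPM under Setdb2WT. The log2 difference of the sums was 0.65, with no overlap (exact permutation p = 0.1, two-sided, the smallest possible with n = 3 each). Summed per kilobase of exon, the log2 difference was 0.55.

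Fold changes of all genes shifted upward with transcript length. Over 5 classes of 12224 tested genes with a known exon length, from the shortest to the longest, the median log2 fold change was -0.12, -0.07, -0.06, -0.01 and 0.04. The share of genes called higher was 35.2% in the shortest class and 44.9% in the longest, which holds genes of more than 7.7 kilobases of exon. The part of length in the results on demethylases was not tested, and the 2 shortest classes held 0 of them. All 5 demethylases in the longest class rose (Kdm3a, Kdm3b, Jmjd1c, Phf8 and Kdm7a). Reads from overlapping genes cannot be told apart without a stated strand setting. In GENCODE, 24.6% of the Kdm3b exon bases are shared with Gm26538 on the opposite strand, which was not analysed here. Kdm7a shares 2.85% of its exon bases with 4930599N23Rik, which had 22, 20 and 27 reads under Setdb2KO and 5, 15 and 1 under Setdb2WT. Kdm7a itself had 2105 to 2462 reads under Setdb2KO and 1206 to 1263 under Setdb2WT.

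Promoters of the genes with the 3 largest rises and of Kdm1a, which did not pass, are shown because KDM3A, KDM4B and KDM4C are known in human cells as genes induced by the hypoxia factor HIF. The core of the HIF binding motif reads ACGTG or GCGTG, and matches to either on both strands are in capitals. Each sequence is the 250 bases before a RefSeq start, on the strand of the gene, in GRCm38.p6. Kdm3a (chr6:71632918-71633167, minus strand) and Jmjd1c (chr10:67126838-67127087, plus strand) are shown at their outermost start. Kdm4c (chr4:74251629-74251878, plus strand) is shown at the second of its 2 listed starts, chosen after its letters were seen, and Kdm1a (chr4:136602724-136602973, minus strand) at its only one.
Kdm3a: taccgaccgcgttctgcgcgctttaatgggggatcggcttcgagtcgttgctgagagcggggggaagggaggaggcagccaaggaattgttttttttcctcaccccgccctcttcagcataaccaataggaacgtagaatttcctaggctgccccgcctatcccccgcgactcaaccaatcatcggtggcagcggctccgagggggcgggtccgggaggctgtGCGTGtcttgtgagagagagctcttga
Jmjd1c: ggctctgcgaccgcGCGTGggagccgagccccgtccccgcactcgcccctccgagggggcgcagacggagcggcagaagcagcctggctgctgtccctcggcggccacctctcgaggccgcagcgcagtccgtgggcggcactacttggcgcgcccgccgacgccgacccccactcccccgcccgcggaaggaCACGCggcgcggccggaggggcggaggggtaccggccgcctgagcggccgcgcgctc
Kdm4c: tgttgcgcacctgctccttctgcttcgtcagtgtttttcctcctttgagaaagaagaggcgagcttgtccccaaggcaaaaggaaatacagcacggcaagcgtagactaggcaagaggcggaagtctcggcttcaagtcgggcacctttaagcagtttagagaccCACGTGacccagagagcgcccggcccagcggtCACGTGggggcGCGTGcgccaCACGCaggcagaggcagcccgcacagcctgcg
Kdm1a: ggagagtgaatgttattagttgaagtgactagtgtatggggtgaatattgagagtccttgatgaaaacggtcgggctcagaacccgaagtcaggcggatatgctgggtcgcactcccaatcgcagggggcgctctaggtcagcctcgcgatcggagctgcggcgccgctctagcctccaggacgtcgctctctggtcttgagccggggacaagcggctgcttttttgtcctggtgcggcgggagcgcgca

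The Kdm3a window held 1 match, GCGTG, 27 bases before the start. The Jmjd1c window held 2, which begin 236 and 57 bases before the start. In the Kdm4c window there were 6 matches between 85 and 32 bases before the start, and 4 of them come from 2 copies of the palindrome CACGTG, which holds ACGTG on both strands. The Kdm1a window held 0, and so did the only window of Kdm4a, which rose. Phf8 and Kdm7a held 2 each. The other windows of Kdm3a, Jmjd1c and Kdm4c held 0 as well, and the count table does not show which start the cells used. Over 12 windows of the 8 demethylase genes in the promoter table, 5 held a match and 1 held CACGTG. Among 20696 windows of genes in the count table, 47.4% held a match and 7.02% held CACGTG. Among 13625 windows of genes tested, 55.0% held a match and 8.13% held CACGTG. A match is a run of letters and says nothing of binding. Kdm3b and Kdm4b had no entry in that table.

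Genes of the hypoxia response (HIF subunits, their regulators and targets) divided much like all genes tested. Among 18 tested, 7 were higher (38.9%), 9 were lower (50%) and 2 missed the threshold, against 41.5% higher and 42.3% lower over all genes. Their median log2 fold change was -0.19, and total-count scaling gave 9 higher and 9 lower. Pdk1, a kinase that inhibits pyruvate dehydrogenase, fell to 4.50 ± 0.16 CPM under Setdb2KO, against 52.6 ± 2.0 CPM under Setdb2WT (SD, n = 3 each; adjusted p = 5.9e-15, edgeR quasi-likelihood test). P4ha1, a collagen prolyl hydroxylase subunit, and Slc2a1, a glucose transporter, had log2 fold changes of -1.49 and -1.48. Hif1a itself was among those that rose, by 0.64 on the log2 scale, and so were Vegfa and Ero1a, by 1.06 and 1.23 (chosen after their values were seen).

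Transcripts for enzymes that make or use the cosubstrate 2-oxoglutarate, or its inhibitory relatives succinate and fumarate, were mostly lower. Among 19 tested, 15 were lower, 3 were higher and 1 missed the threshold (median log2 fold change -0.62), a share of 78.9% lower against 42.3% over all genes. Total-count scaling gave 12 lower and 4 higher. Idh2, the mitochondrial NADP-dependent isocitrate dehydrogenase, which makes 2-oxoglutarate, had 37.4 ± 0.80 CPM under Setdb2KO and 269 ± 1.9 CPM under Setdb2WT, a log2 fold change of -2.84 (SE 0.03; adjusted p = 1.8e-16, edgeR quasi-likelihood test). Its cytosolic counterpart Idh1 had 16.3 ± 0.65 CPM under Setdb2KO and 112 ± 1.0 CPM under Setdb2WT (log2 fold change -2.78). Suclg2, a subunit of succinyl-CoA ligase, had a log2 fold change of -2.39. Metabolite levels were not measured. For Kdm1a the cofactor is a flavin. Of 4 flavin supply genes 1 fell (25%, against 42.3% of all genes), the riboflavin transporter Slc52a2 (log2 fold change -1.19), while 3 were past neither side. Among these 3, Slc52a3 had only 9 to 24 reads per library. Total-count scaling called 2 of the 4 genes higher (50%, against 48.5% of all genes).

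The complex around Kdm1a was divided. Among 11 CoREST genes tested, 7 were higher and 4 lower (median log2 fold change 0.27), a share of 63.6% higher against 41.5% over all genes. The deacetylases Hdac2 and Hdac1, its other catalytic subunits, had 113 ± 3.7 and 122 ± 4.2 CPM under Setdb2KO, against 195 ± 1.8 and 179 ± 1.8 CPM under Setdb2WT (SD, n = 3 each). Their log2 fold changes were -0.78 and -0.55 (adjusted p = 3.3e-11 and 1.9e-09, edgeR quasi-likelihood test).

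Other JmjC proteins and the remaining demethylases changed in both directions. Among 20 tested, 13 were higher, 6 were lower and 1 missed the threshold (median log2 fold change 0.37), a share of 65% higher against 41.5% over all genes. Kdm5a, which acts on H3 lysine 4, rose to 158 ± 7.8 CPM under Setdb2KO, against 68.4 ± 1.5 CPM under Setdb2WT (SD, n = 3 each), a log2 fold change of 1.21. Kdm6a, which acts on H3 lysine 27, and Phf2, a relative of Phf8, rose by 0.88 and 0.86. Members that fell included Riox2, a ribosomal oxygenase, at -0.94, and Jarid2, a Polycomb partner without demethylase activity, at -0.62 (both chosen after their values were seen). Hr, a further JmjC protein of this list, was also called lower, at -0.46 (named after its values were seen). The rise of every tested JmjC-domain member thus depends on which genes were listed as H3K9 demethylases, and does not hold for JmjC proteins in general. No test compared this list with the H3K9 demethylases.

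The writers and readers of the mark were higher about as often as genes in general. Among 12 tested H3K9 methyltransferase and HP1 genes with their partners, 5 were higher (41.7%, against 41.5% of all genes), 3 lower (25%, against 42.3%) and 4 past neither side. Log2 fold changes lay between -0.87 and 0.41, with 0.05 as the median. Trim28, a corepressor that recruits Setdb1, Ehmt2 (G9a), which writes mono- and dimethyl marks, and Cbx3 (HP1 gamma) fell by 0.87, 0.63 and 0.51 on the log2 scale. With total-count scaling, 8 were called higher (66.7%, against 48.5% of all genes) and 3 lower.

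**Figure D4:**
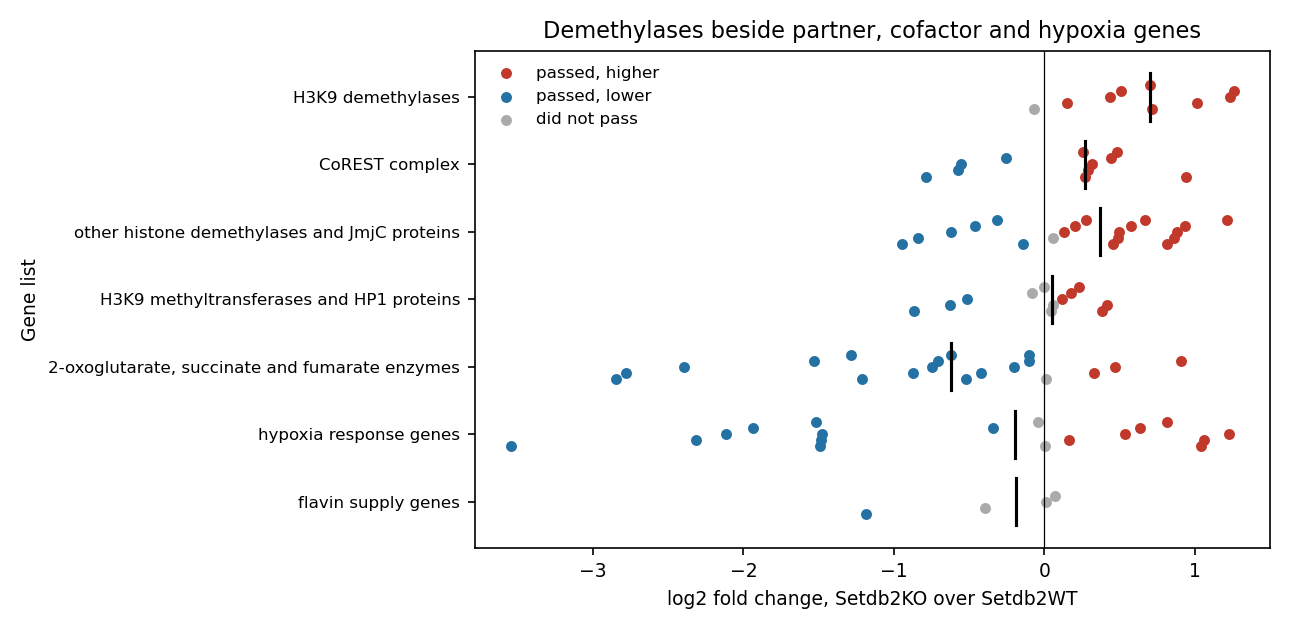
Log2 fold change, Setdb2KO over Setdb2WT, of each tested gene in 7 lists, coloured by whether it passed edgeR's test, with a black line at the median of each list. The H3K9 demethylases have a median of 0.70 and no blue point, and the enzymes of 2-oxoglutarate, succinate and fumarate have a median of -0.62.

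The nearest tested genes on either side of the demethylases divided much like all genes, of which 41.5% were higher and 42.3% lower. Among 18 such neighbours 8 were higher, 7 lower and 3 past neither side, around a median of 0.09 on the log2 scale. Distances are those between gene bounds in the RefSeq table of GRCm38.p6. Chmp3, an ESCRT subunit 6.36 kilobases from Kdm3a, fell by 0.46, and Mrpl35, a mitochondrial ribosomal protein 180 kilobases away, rose by 0.69 on the log2 scale. Reep3, which overlaps Jmjd1c, rose by 0.10 and Nrbf2, 10.4 kilobases from it, fell by 0.27, and the Reep3 call was lost without Setdb2WT replicate 1 or 2 (adjusted p = 0.0779 and 0.064, edgeR quasi-likelihood test). The nearest tested genes to Kdm4c were far off. C630043F03Rik, 2039 kilobases away, fell by 1.82, and Dmac1, 871 kilobases away, had a log2 fold change of 0.12 and did not pass. Under total-count scaling Nrbf2 missed the threshold (adjusted p = 0.146) and Dmac1 passed as higher (adjusted p = 0.00146).

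Kdm3a had the smallest adjusted p of the demethylases. The protein-coding genes closest to it in centred log2 CPM over the 6 libraries, by Euclidean distance, were Pip5k1a at 0.044, Myc at 0.046 and Rab3gap2 at 0.051. Pip5k1a makes a membrane phosphoinositide, Myc is a growth-promoting transcription factor, and Rab3gap2 regulates a Rab GTPase. Their log2 fold changes were 1.22, 1.23 and 1.24. With 2 groups, this likeness rests mainly on an equal difference between the labels.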

How the data were processed

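RNA of 6 MPC5 libraries was sequenced, 3 per label. The authors deposited raw counts, with a row per gene and a column per library. The submitters' processing notes list fastp, HISAT, HTSeq and the build GRCm39. The sources used here give no versions, annotation or strandedness. Columns were matched to samples by genotype and number, and 0 stayed unmatched.

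Counts were fitted over the whole table with edgeR 4.0.16 (quasi-likelihood F test, R 4.3.3), TMM scaling, filterByExpr at a minimum count of 10, and label as the only term. P-values were Benjamini-Hochberg adjusted over all 13509 genes tested, at a threshold of 0.05. SE is the log2 fold change over the root of F. Exon lengths came from GENCODE vM21 (GRCm38) by Entrez ID, found for 90.5% of genes tested, and neighbours from the RefSeq table of GRCm38. Promoter sequences are RefSeq's (GRCm38.p6). Single values were tested by exact permutation over libraries, two-sided (scipy 1.17.1).

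The members and lists were chosen with earlier results of these data known. Of 133 listed genes, 126 were found. Named genes were the members, Setdb2, up to 3 per list with the smallest adjusted p and a mean CPM of at least 1, neighbours of members that rose at least 2-fold, and the 3 genes nearest to the member with the smallest adjusted p. The scripts were tested on simulated counts. Alternatives were DESeq2 size factors, total-count or upper-quartile scaling, DESeq2's Wald test (version 1.42.0), limma-voom (version 3.58.1), no filter, CPM at least 1 in at least 3 libraries, a replicate block, each library left out, sums per kilobase, and 0.5 reads added to ratios. Libraries of a label were not repeat deposits: chi-square over degrees of freedom was 4.38 to 15.7 between pairs under Setdb2KO and 2.55 to 2.71 under Setdb2WT. Intervals of read ratios are Clopper-Pearson at 95%.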

Additional observations from a re-analysis of the deposited data

How the results depend on the processing

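Of 772 checks over 59 results and their alternatives, 761 kept direction and side of the threshold (for counts, stayed within 1.5 times), 4 lost the call, 6 gained a call or count, and 1 reversed. The checks of ratios and of summed CPM could not cross the threshold, as their smallest possible exact permutation p is 0.1. Genes named from the lists were picked for small adjusted p, which also favours kept calls. Kdm3a, Jmjd1c and Kdm4c stayed called as higher under all 14 alternatives, with log2 fold changes of 1.21 to 1.39, 0.98 to 1.17 and 1.23 to 1.41. Under total-count scaling, which moves all genes upward relative to TMM, Kdm1a turned to 0.087, Setdb2 passed at a log2 fold change of 0.88, 8 H3K9 methyltransferase and HP1 genes were higher, and 2 flavin supply genes were higher. Leaving out each library gave 0 to 1 demethylases lower, the 1 being Kdm1a without Setdb2WT replicate 1, the cause of which was not tested. The log2 difference of summed CPM stayed between 0.63 and 0.81, and that of the sums per kilobase of exon was 0.55. The replicate number did not pair the libraries. Same-numbered libraries had correlated deviations of -0.037 to 0.00086, and 0 of 3 Setdb2KO libraries correlated best with their own number. With the replicate block 11190 genes passed instead of 11318, and 8 demethylases were higher. Kdm4d, with 0 to 3 reads a library, was too shallow to test.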
